A study of Mus musculus with 2 samples.

Results

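The vacuolar ATPase (V-ATPase) is the proton pump that acidifies lysosomes, endosomes and, in some kidney cells, the urine. The 10 genes described here encode subunits that most cell types use: Atp6v1a, Atp6v1b2, Atp6v1c1, Atp6v1d, Atp6v1e1 and Atp6v1h of the V1 part, and Atp6v0a1, Atp6v0b, Atp6v0c and Atp6v0d1 of the V0 part. They were matched by symbol among the 55488 gene rows present in both matrices, and each symbol stood on 1 row. The rule uses no measured value, although the list was drawn up with earlier results of these data known. V1 is the cytosolic part that hydrolyses ATP, and V0 is the membrane part through which protons pass. Many of these genes are known targets of the transcription factors TFEB and TFE3, which bind a short DNA word built around CACGTG. Folliculin, the product of Flcn, acts on the lysosome to keep these factors out of the nucleus.

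Single-cell RNA-seq was done on kidneys of newborn mice (postnatal day 0) to see how expression in the nephron lineages differs once Flcn is deleted. There were 2 libraries, 1 a group: the library labelled Flcn WT came from Six2Cre; Flcn flox/+ mice and the library labelled Flcn KO from Six2Cre; Flcn flox/flox mice. Both therefore carried Cre and at least 1 floxed allele, and the WT library is heterozygous in the Cre lineage. Six2-Cre is active in nephron progenitors and is inherited by podocytes and by the tubule from proximal to distal, but not by the ureteric bud, stroma, vessels or immune cells. How many animals went into a library is not stated, and the labels call the tissue embryonic kidney. Deposited depth was 147390790 UMIs (unique molecular identifiers, the count of captured transcripts) over 5572 barcodes in WT and 149679281 over 5991 in KO. Filters left 4047 WT and 4837 KO cells, with medians of 20963 and 18517 UMIs, and 1 of their barcodes occurred in both libraries. Since each group is 1 library, nothing here could be checked on replicates, and the intervals take in the error of counting alone.

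Promoters of 3 of these genes hold the word CACGTG, and they are shown here because the study concerns the factors that bind it. Sequences are from the RefSeq promoter table for GRCm38.p6, which held 7 of the 10 genes (not Atp6v1b2, Atp6v1c1 and Atp6v1h). All 3 genes lie on the minus strand, sequences read 5′ to 3′ on that strand, and capitals mark the word CACGTG, or TCACGTGA where the longer word is complete. The Atp6v0b stretch is chr4:117887334-117887483, from 154 to 5 bases before the transcription start, and overlaps no annotated exon. The Atp6v1a stretch is chr16:44139373-44139402, 143 to 114 bases before the RefSeq start, within the gene's span in GENCODE but in no exon. The Atp6v0d1 stretch is chr8:105566051-105566080 and straddles the start.
Atp6v0b: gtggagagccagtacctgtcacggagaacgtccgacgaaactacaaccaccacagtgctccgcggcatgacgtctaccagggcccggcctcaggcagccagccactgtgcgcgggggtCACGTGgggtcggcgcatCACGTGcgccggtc
Atp6v1a: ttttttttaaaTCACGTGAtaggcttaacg
Atp6v0d1: gccctactgcggTCACGTGAgacgcggtgc
Atp6v0b held 2 copies, starting 36 and 18 bases before the start, and Atp6v1a held 1 copy that starts 131 bases before it. In the 250 bases before the start, CACGTG was found in 2 of the 7 genes and in 6.86% of the 27025 genes of the table. TCACGTGA was found there in 1 of the 7, against 0.907% of all genes. Both words read the same on either strand, and the second contains the first. With the 50 bases after the start added, the counts were 3 of 7 against 8.09% and 2 of 7 against 1.13%, a window chosen after seeing the data. A match describes these letters only and shows no binding.

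Loop of Henle cells, the thick ascending limb lineage that reabsorbs salt and makes uromodulin, carried more UMIs of every one of the 10 subunits in the KO library. The class held 141 WT cells and 207 KO cells, with medians of 43194 and 49488 UMIs a cell, and 10 of its 14 markers were highest in it in each library. Levels are UMIs summed over the cells of a class and scaled to nuclear-encoded UMIs (CPM), and ratios are KO over WT with exact 95% intervals. The sum over the 10 subunits was 1846 CPM in WT and 3457 CPM in KO, a ratio of 1.87 (1.84 to 1.91). All 10 ratios were over 1 with intervals that exclude 1, and 8 of 10 were at least 1.5. Of all 12616 genes with at least 50 UMIs in this class, 47.8% were higher in KO, 26.4% had an interval wholly over 1 and 10.7% were at least 1.5-fold higher. The median log2 ratio was 0.96 over the 10 subunits and -0.03 over all these genes. Among 2449 genes with UMI totals within the range of the 10 subunits, 10.4% were at least 1.5-fold higher.

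**Figure D1:**
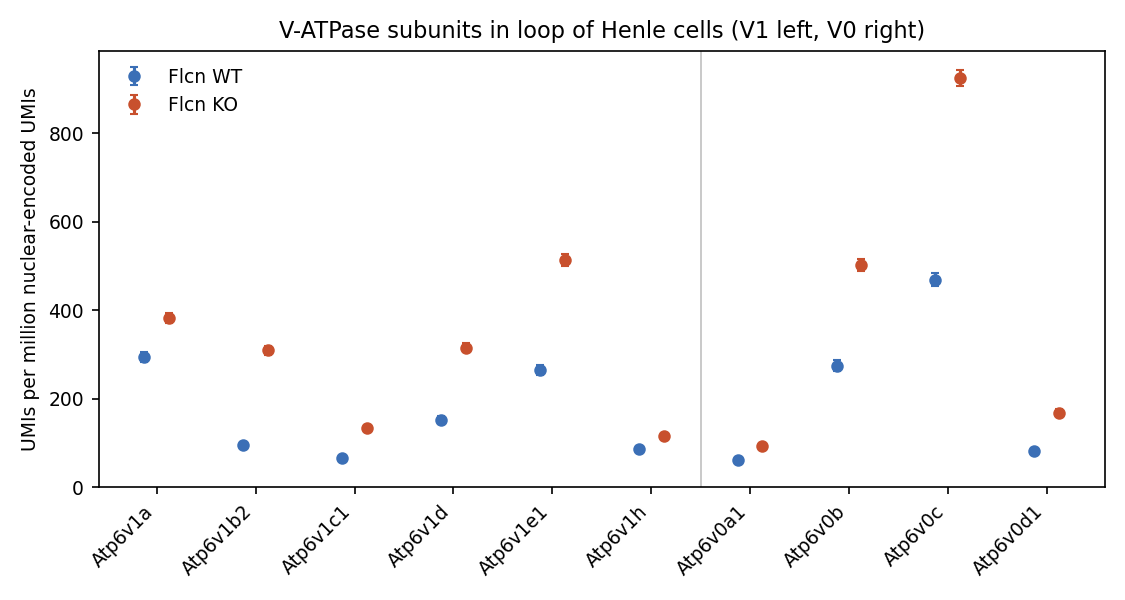
Level of each subunit in loop of Henle cells, in CPM of nuclear-encoded UMIs, with the WT library in blue and the KO library in orange; bars are exact 95% counting intervals of 1 library each. The KO point lies above the WT point for all 10 subunits, from 94.7 against 309.8 CPM for Atp6v1b2 to 293.8 against 382.4 CPM for Atp6v1a.

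Atp6v1b2 encodes the widely used isoform of the B subunit, which alternates with A in the ATP-hydrolysing head. It gave 752 UMIs in WT and 3582 in KO loop of Henle cells, or 94.7 and 309.8 CPM, a ratio of 3.27 (3.02 to 3.54). This was the largest ratio of the 10 in the class. After thinning to 3000 UMIs a cell, a UMI of it was found in 25% of 132 WT cells (17.9% to 33.3%, Clopper-Pearson) and in 52.2% of 203 KO cells (45.1% to 59.3%). Too shallow to enter were 9 cells in WT and 4 in KO. Unthinned, the shares were 83.7% and 95.7%. In stroma the thinned shares were 8.78% and 8.40%. No class lacks this gene, so no share serves as a background of free RNA. Slc18a1 lies over it on the opposite strand and gave 19 and 146 UMIs here. Whether the counting used strand is not given in the sources used here, so reads of the pair cannot be told apart.

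Atp6v1a encodes the catalytic A subunit. It gave 2333 and 4421 UMIs, or 293.8 and 382.4 CPM, and its ratio of 1.30 (1.24 to 1.37) was the smallest of the 10. It came close to 1 under several settings, at 1.02 with at least 2000 UMIs a cell, 1.09 with at most 10% mitochondrial UMIs and 1.10 at either other clustering resolution. At the finer resolution, some distal tubule cells (20 in WT, 2 in KO) fell into a subcluster with loop of Henle cells. The word TCACGTGA lies before the RefSeq start of Atp6v1a but within its GENCODE span, and any link of the word to the ratio was not tested.

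The stalk and regulatory subunits of V1 were higher by different amounts. Atp6v1d, the D subunit of the central rotor, had 1207 and 3639 UMIs (152 and 314.7 CPM), a ratio of 2.07 (1.94 to 2.21). Atp6v1c1, the C subunit of the stator, had 524 and 1547 UMIs (66.0 and 133.8 CPM), a ratio of 2.03 (1.84 to 2.24). Atp6v1e1, the E subunit of the peripheral stalk, had 2108 and 5936 UMIs (265.4 and 513.4 CPM), a ratio of 1.93 (1.84 to 2.03). Atp6v1h, the regulatory H subunit, stood below these 3 and under the 1.5-fold limit. It had 688 and 1333 UMIs (86.6 and 115.3 CPM), a ratio of 1.33 (1.21 to 1.46). Slc25a18 lies over Atp6v1e1 on the opposite strand and gave only 19 and 27 UMIs.

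All 4 V0 subunits were past 1.5-fold. Atp6v0c, the c subunit that forms most of the proton-carrying ring, had 3726 and 10683 UMIs (469.2 and 923.9 CPM), a ratio of 1.97 (1.90 to 2.04). Atp6v0b, its ring partner c′′, had 2183 and 5798 UMIs (274.9 and 501.4 CPM), a ratio of 1.82 (1.74 to 1.92). Atp6v0d1, the d subunit that joins the ring to the V1 rotor, had 648 and 1950 UMIs (81.6 and 168.6 CPM), a ratio of 2.07 (1.89 to 2.26). Atp6v0a1, an isoform of the a subunit that lines the proton path, was the V0 member with the smallest ratio. It had 490 and 1085 UMIs (61.7 and 93.8 CPM), a ratio of 1.52 (1.37 to 1.69). Of the pseudogenes with a copy of Atp6v0c, Atp6v0c-ps1 had 0 UMIs in these cells and Atp6v0c-ps2 had 2 in WT and 3 in KO.

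The loop of Henle cells were not evenly mixed between the libraries when clustered more finely. A subcluster shared by both libraries held 127 of the WT cells and 27 of the KO cells, and another held 180 KO cells and 14 WT cells, 92.8% from KO. The V-ATPase genes themselves were left out of the genes used for clustering. The 14 WT cells in the KO-held subcluster had a median of 1691 UMIs and 156 UMIs of the 10 subunits in all. With the KO-held subcluster left out, the median log2 ratio was 0.33 instead of 0.96, and 2 of 10 subunits, Atp6v1b2 at 2.60 (2.27 to 2.97) and Atp6v1c1 at 1.63 (1.34 to 1.97), were at least 1.5. Atp6v1a at 0.835 (0.739 to 0.941) and Atp6v1e1 at 0.757 (0.661 to 0.863) were then lower in KO. Of all genes, 10.7% were at least 1.5-fold higher in the whole class, and no share is given for the reduced set. The sum over the 10 was 1842 CPM in the 127 WT cells, 2107 CPM in the 27 KO cells beside them and 3621 CPM in the 180 KO cells of the other subcluster. Most of the KO excess thus stood in cells that clustered apart, and the 27 KO cells were shallower, with a median of 28960 UMIs against 48070. Whether the split is a state of the cells or of the library cannot be told apart with 1 library a group.

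**Figure D2:**
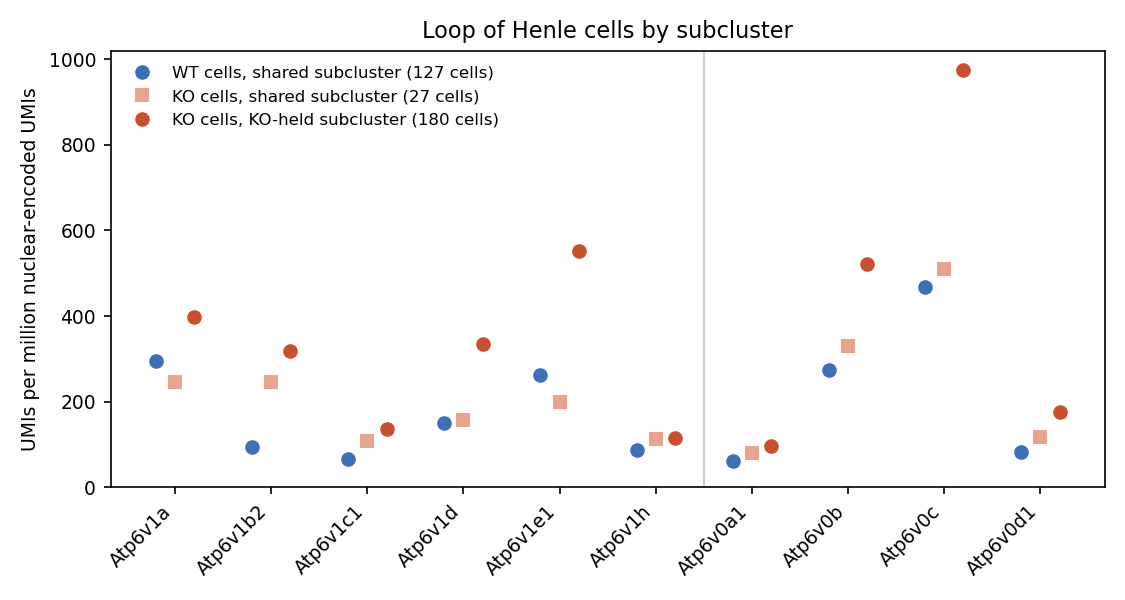
Level of each subunit, in CPM of nuclear-encoded UMIs, in 3 sets of loop of Henle cells: 127 WT cells and 27 KO cells of the shared subcluster, and 180 KO cells of the KO-held subcluster. The 180 KO cells are highest for every subunit, while the 27 KO cells lie below the WT cells for Atp6v1a and Atp6v1e1 and well above them for Atp6v1b2.

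Markers of immune and intercalated cells were low in the loop of Henle class of both libraries. The 12 immune markers, whose cells are rich in lysosomes, summed to 36.1 CPM in WT and 35.6 CPM in KO loop of Henle cells, against 17770 and 17610 CPM in the immune class. Lyz2, C1qa, C1qb, Tyrobp and Laptm5 were at 0 in WT and had 2 to 5 UMIs in KO, while Cd74 had 22 and 163 UMIs. Csf1r and Fcer1g were lower in KO, with 150 and 92 UMIs and with 82 and 66 UMIs. Of the rest, Ptprc had 25 and 58, Coro1a 2 and 8, C1qc 2 and 3 and Cd52 4 and 3 UMIs. Markers of intercalated cells, the acid-secreting cells richest in this pump, summed to 9.82 CPM in WT and 2.85 CPM in KO. Distal tubule markers were not low, at 2998 and 2557 CPM, against 7992 and 6461 CPM in the distal class. Podocyte markers summed to 368.7 and 1120 CPM, early nephron markers to 948.3 and 450.3 CPM, and proximal tubule markers to 57.5 and 99.2 CPM. Loop of Henle markers themselves summed to 13260 and 13510 CPM. The share of loop of Henle cells was 3.48% in WT and 4.28% in KO, and mitochondrial UMIs were 5.87% and 6.60% of the class total. Their part in the result was not tested.

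In the 5 other classes of the Six2 lineage most subunits were also higher in KO, with another leading subunit in several of them. Podocytes, the filtering cells of the glomerulus, had 10 of 10 higher and 7 of 10 at least 1.5-fold, while of 10734 genes 56.6% were higher and 8.9% past 1.5-fold. Early nephron cells (vesicles and S-shaped bodies) had 10 of 10 higher and 4 of 10 at least 1.5-fold, while of 13913 genes 48.7% were higher and 4.31% past 1.5-fold. Nephron progenitors had 10 of 10 higher and 1 of 10 at least 1.5-fold, while of 14725 genes 52.7% were higher and 4.78% past 1.5-fold. Proximal tubule cells had 9 of 10 higher and 4 of 10 at least 1.5-fold, while of 14378 genes 49.7% were higher and 10.1% past 1.5-fold. Distal tubule cells had 9 of 10 higher and 6 of 10 at least 1.5-fold, while of 8109 genes 45.8% were higher and 12.9% past 1.5-fold. In progenitors the excess was thus spread over nearly all subunits but small, with a median log2 ratio of 0.44. The medians were 0.55 in early nephron, 0.78 in podocytes, 0.37 in proximal tubule and 0.68 in distal tubule.

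**Figure D3:**
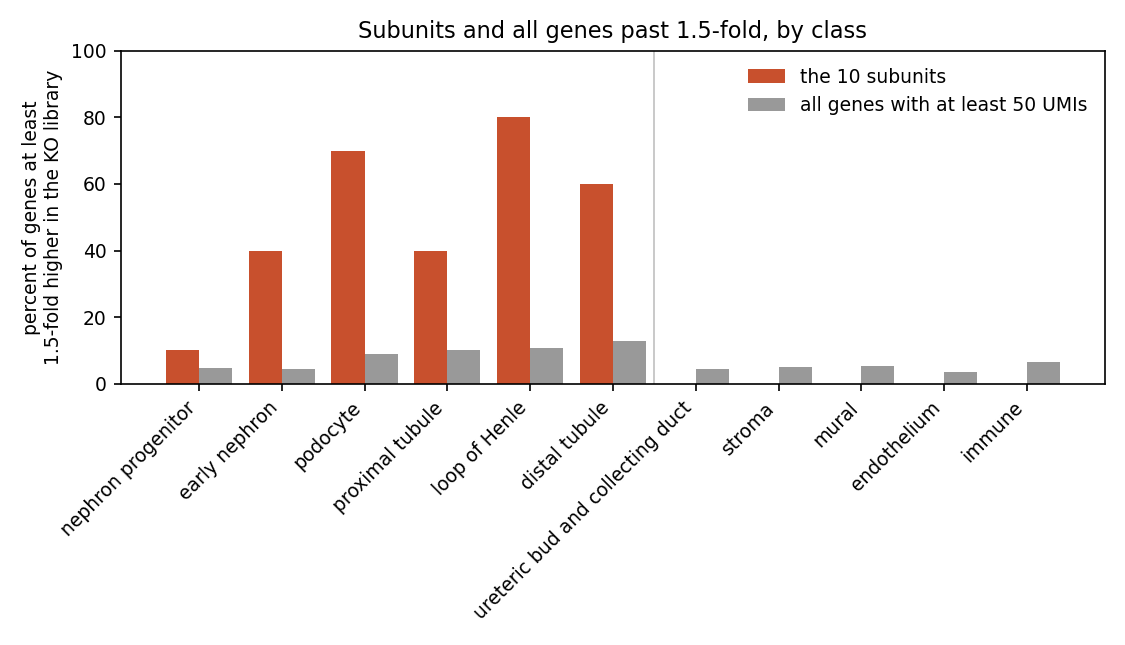
Percent of the 10 subunits (orange) and of all genes with at least 50 UMIs in the class (grey) that were at least 1.5-fold higher in the KO library, by class, with the Six2 lineage left of the line. The subunits reach 80% in loop of Henle cells against 10.7% of all genes, and no subunit passes 1.5-fold in the 5 classes on the right.

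Atp6v0b had the largest ratio of the 10 in 3 classes: nephron progenitors, early nephron cells and podocytes. In nephron progenitors, where Cre is first active, it had 1584 UMIs in WT and 2403 in KO (82.8 and 156.2 CPM), a ratio of 1.88 (1.77 to 2.01). In early nephron cells it had 1279 and 1953 UMIs (91.7 and 196.2 CPM), a ratio of 2.14 (1.99 to 2.30). In podocytes it had 1000 and 1737 UMIs (188.6 and 539.3 CPM), a ratio of 2.86 (2.64 to 3.09). This is the gene with 2 copies of CACGTG close to its start, and any link of these copies to its ratio was not tested. The other 9 subunits ranged from 1.10 (Atp6v0a1) to 1.44 (Atp6v0c) in progenitors. In early nephron cells they ranged from 1.05 (Atp6v0a1, 0.927 to 1.2) to 1.67 (Atp6v0c, 1.58 to 1.76). The interval of Atp6v0a1 held 1 in progenitors, early nephron and podocytes, and those were the only intervals in these 3 classes that did. Intervals wholly over 1 were found for 19.2%, 14.4% and 19.3% of all genes in these classes.

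Podocytes had the next largest median after the loop of Henle. Behind Atp6v0b came Atp6v1d, with 456 UMIs in 193 WT cells and 629 in 117 KO cells (86.0 and 195.3 CPM), a ratio of 2.27 (2.01 to 2.57). Atp6v0d1 followed at 1.87 (1.67 to 2.09), Atp6v0c at 1.84 (1.72 to 1.96), Atp6v1e1 at 1.72 (1.58 to 1.88), Atp6v1a at 1.71 (1.5 to 1.95) and Atp6v1b2 at 1.56 (1.35 to 1.81). Atp6v1a, weak in the loop of Henle, thus had its largest ratio here. Atp6v1c1 at 1.45 (1.22 to 1.73) and Atp6v1h at 1.39 (1.2 to 1.61) stayed under 1.5. The sum over the 10 was 1280 CPM in WT and 2418 CPM in KO, a ratio of 1.89 (1.83 to 1.95).

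Proximal tubule cells, which take up filtered protein and have many endosomes and lysosomes, carried high levels in both libraries. The sum over the 10 was 2981 CPM in 481 WT cells and 4006 CPM in 405 KO cells, a ratio of 1.34 (1.33 to 1.36). Atp6v0a1 led with 660 and 1638 UMIs (29.6 and 78.5 CPM), a ratio of 2.65 (2.42 to 2.91). Atp6v1c1 had 3129 and 5286 UMIs, a ratio of 1.81 (1.73 to 1.89), Atp6v0b a ratio of 1.71 (1.66 to 1.76) and Atp6v0c a ratio of 1.59 (1.56 to 1.62). All 4 V0 subunits and 4 of the 6 V1 subunits had intervals over 1, as had 28.2% of all genes. Of the other V1 subunits, Atp6v1a was lower in KO over the whole class, with 13443 and 11421 UMIs, a ratio of 0.908 (0.886 to 0.931). Atp6v1e1 stood at 1.03 (0.999 to 1.07).

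The proximal tubule class also held a subcluster of nearly 1 library, with 7 WT and 179 KO cells. Without it, 1 of 10 subunits was at least 1.5-fold higher instead of 4, Atp6v0a1 at 1.86. Atp6v1c1 moved from 1.81 to 1.17, Atp6v0c from 1.59 to 1.28 and Atp6v1a from 0.908 to 0.842. Of all genes, 10.1% were at least 1.5-fold higher in the whole class, a share near 1 of 10, and none is given for the reduced set. Among the subclusters, the one with nearly equal cell numbers (120 WT, 127 KO) gave a sum of 1844 and 2919 CPM, a ratio of 1.58 (1.55 to 1.62), with Atp6v0b at 2.12 (1.99 to 2.27) and Atp6v1a at 1.01 (0.945 to 1.07). The other large ones (233 WT with 54 KO cells, and 117 WT with 41 KO cells) gave ratios of the sum of 1.236 and 1.245. Atp6v1a stood there at 1.09 (1.04 to 1.15) and 0.90 (0.849 to 0.954), and at 1.03 (0.907 to 1.18) in the subcluster of nearly 1 library. Its WT level ran from 336.8 CPM with 120 WT cells to 826.4 CPM with 117 WT cells. The lower Atp6v1a ratio of the whole class was thus not seen in each subcluster. The ratio of the sum was thus over 1 in every proximal subcluster, with a size that differed between them. Immune markers summed to 70.2 CPM in WT and 176.6 CPM in KO proximal cells. Of that, Cd74, a gene of antigen presentation, had 10.4 and 119.3 CPM, while Lyz2 had 0.359 and 0.910 CPM and C1qa 0.135 and 0.144 CPM. Csf1r, the largest part of the WT sum, had 56.1 and 51.9 CPM. Their part in the result was not tested.

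Distal tubule values rest on 63 WT and 28 KO cells of unequal depth, with medians of 8501 and 34003 UMIs. The name is weakly held, since only 6 of 13 distal markers in WT and 7 in KO were highest in this class. In WT those markers summed to more in intercalated cells (10650 CPM) than here (7992 CPM). Loop of Henle markers summed to 8756 CPM in WT and 5159 CPM in KO distal cells, intercalated markers to 170.6 and 209.6 CPM, podocyte markers to 381.2 and 1865 CPM and erythroid markers to 1180 and 10.1 CPM. Their part in the distal values was not tested. Atp6v1d led with 258 and 289 UMIs (126.1 and 291.2 CPM), a ratio of 2.31 (1.95 to 2.74), followed by Atp6v1b2 at 2.02 (1.66 to 2.44). Atp6v0a1 stood at 1.75 (1.26 to 2.42), Atp6v0d1 at 1.72 (1.41 to 2.10), Atp6v0c at 1.61 (1.47 to 1.75) and Atp6v1c1 at 1.60 (1.27 to 2.02). Atp6v1a went the other way, with 1239 and 388 UMIs (605.6 and 390.9 CPM), a ratio of 0.646 (0.575 to 0.724). The count of 6 subunits at least 1.5-fold higher was 1 with at most 10% mitochondrial UMIs, and 3 with at least 2000 UMIs a cell or at the finer resolution. No share of all genes is given for these settings. In the main setting it was 12.9%, a share near 1 of 10.

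**Figure D4:**
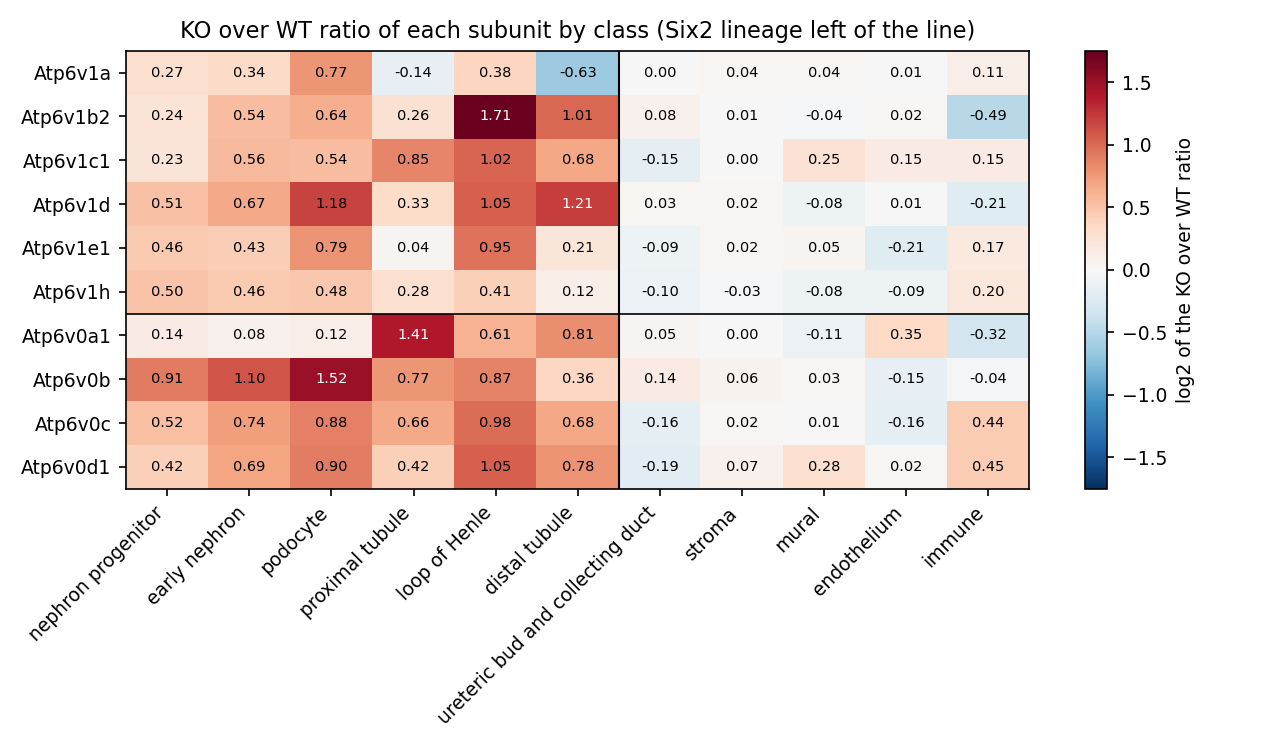
Log2 of the KO over WT ratio for each subunit (rows, V1 above and V0 below the line) in 11 classes (columns, Six2 lineage left of the line). Nearly all cells left of the line are red, with 1.71 for Atp6v1b2 in loop of Henle as the largest and -0.63 for Atp6v1a in distal tubule as the lowest, and values right of the line stay between -0.49 and 0.45.

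In the 5 classes outside the Six2 lineage, 0 of 10 subunits reached 1.5-fold in any class. Of all genes, 4.29% did so in ureteric bud and collecting duct, 4.88% in stroma, 5.21% in mural cells, 3.47% in endothelium and 6.57% in immune cells. In ureteric bud and collecting duct (215 WT and 98 KO cells), a Cre-negative epithelium, ratios ran from 0.879 (Atp6v0d1) to 1.10 (Atp6v0b), with a median log2 ratio of -0.04. In stroma (1142 and 1997 cells) all 10 intervals held 1, and ratios ran from 0.982 to 1.05. Mural cells ran from 0.928 to 1.22 and endothelium from 0.865 (Atp6v1e1, 0.798 to 0.937) to 1.27 (Atp6v0a1, 1.13 to 1.43). Immune cells (91 and 201) had the widest range, from 0.712 for Atp6v1b2 (0.595 to 0.852) to 1.37 for Atp6v0d1 (1.11 to 1.68). The subunits of these classes thus differed by less than 1.5-fold between the libraries, in both directions. Intervals lay wholly over 1 for 1 subunit and wholly under 1 for 2 in ureteric bud and collecting duct. The counts over and under 1 were 1 and 0 in mural cells, 1 and 3 in endothelium and 2 and 2 in immune cells. Of all genes, 15.1% and 8.84%, 10.9% and 11.7%, 12.5% and 13.7%, and 10.3% and 10.2% had such intervals in these 4 classes. The classes' median log2 ratios were -0.04, 0.02, 0.02, 0.01 and 0.12.

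Each subunit's ratio in loop of Henle cells was divided by its ratio outside the lineage, as a measure of the difference between them. Against the 5 outside classes pooled, these ratios of ratios ran from 1.44 (Atp6v0a1) to 3.71 (Atp6v1b2), median 2.10, and all 10 intervals excluded 1. No share of all genes is given for these ratios of ratios, here or against the single classes below. For the loop of Henle ratio itself, 26.4% of all genes had an interval wholly over 1 and 28.6% wholly under 1. Pooling mixes classes whose shares differ between libraries (stroma was 28.2% of WT and 41.3% of KO cells), and 8 of 10 pooled ratios were under 1, as were those of 52.6% of all genes. Against stroma alone the values ran from 1.27 (Atp6v1a) to 3.26 (Atp6v1b2), and against ureteric bud and collecting duct alone from 1.30 to 3.10, for the same genes. All 10 intervals excluded 1 with either class. This did not hold for each subunit once the KO-held subcluster was left out. Atp6v1a at 0.835 and Atp6v1e1 at 0.757 then lay below stroma (1.03 and 1.01) and ureteric bud and collecting duct (1.003 and 0.940), and Atp6v1d at 1.04 lay beside stroma at 1.02.

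Compared with its own lineage, the loop of Henle was not highest for every subunit. For Atp6v1b2 the loop of Henle ratio exceeded that of each of the other 5 lineage classes, by 1.62 (1.32 to 2.0) against distal tubule up to 2.77 (2.48 to 3.10) against progenitors. For Atp6v0b it was below that of podocytes, with a ratio of ratios of 0.638 (0.581 to 0.70), and of early nephron at 0.853 (0.782 to 0.930). For Atp6v0a1 it was below that of proximal tubule, at 0.573 (0.497 to 0.661). For Atp6v1a it was below that of podocytes, at 0.762 (0.662 to 0.877). Atp6v1h showed no ratio of ratios with an interval that excludes 1 against any of the 5. With the KO-held loop of Henle subcluster left out, Atp6v1b2 still stood at 2.60, above its main ratio in the other 5 classes.

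**Figure D5:**
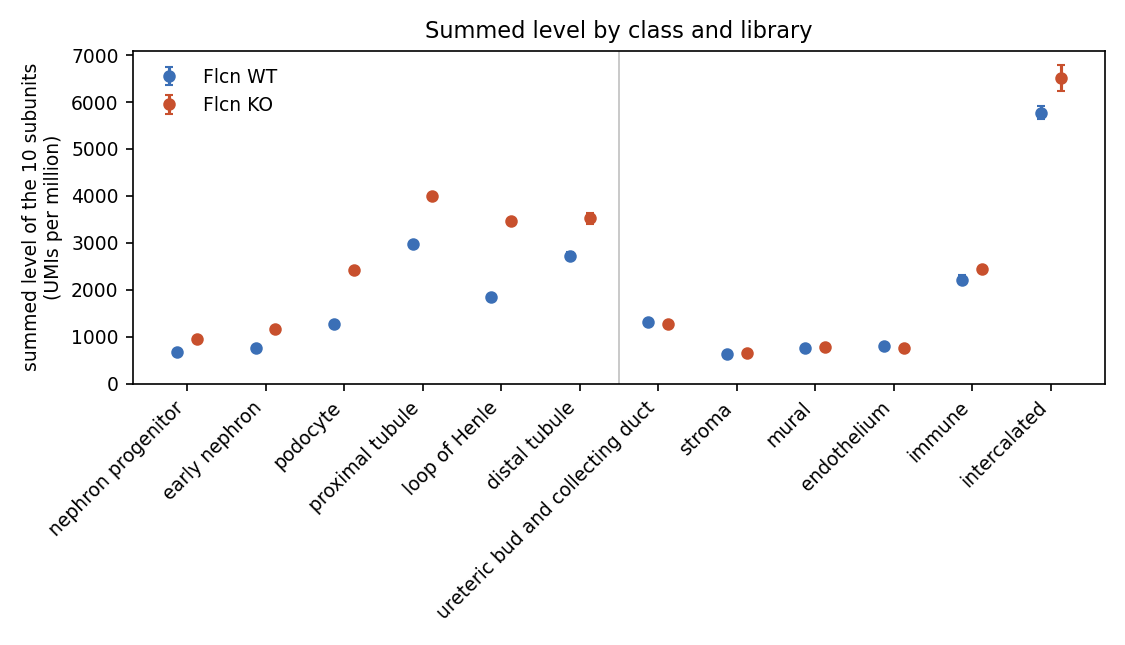
Summed level of the 10 subunits, in CPM of nuclear-encoded UMIs, by class with the WT library in blue and the KO library in orange; bars are exact 95% counting intervals. Intercalated cells are highest (5767 and 6508 CPM), and the difference in CPM is largest in loop of Henle cells (1846 and 3457 CPM), while the ratio is as large in podocytes (1.89 against 1.87).

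Intercalated cells, which use this pump to secrete acid, had the highest summed level, 5767 CPM in 28 WT cells and 6508 CPM in 9 KO cells. Distal tubule markers summed to 10650 and 4531 CPM in them, and ureteric bud and collecting duct markers to 4377 and 1570 CPM. Whether these cells belong to the Six2 lineage was not determined, and they were placed neither in it nor outside it. Of the 10 subunits, 2 were at least 1.5-fold higher in KO there, against 18.4% of 5588 genes: Atp6v1b2 at 1.81 (1.37 to 2.37) and Atp6v0a1 at 1.57 (0.927 to 2.605). The order of the classes differed between subunits. Intercalated cells were highest in both libraries for Atp6v1a (1245 and 1658 CPM), Atp6v1d, Atp6v1e1, Atp6v1h, Atp6v0b and Atp6v0c (1852 and 1856 CPM). For Atp6v1b2 they stood at 137.2 and 248.5 CPM, below proximal tubule cells, which were highest at 263.8 and 316.2 CPM. The gap was larger in WT than in KO, where the intercalated value rests on 85 UMIs. Slc18a1, on the opposite strand, gave 4624 and 3794 UMIs in proximal tubule, beside 5885 and 6599 of Atp6v1b2. Reads of the pair cannot be told apart, so this rank carries that limit. Proximal tubule was also highest for Atp6v1c1 (140.3 and 253.3 CPM), and for Atp6v0d1 in WT (158.5 CPM), with podocytes highest in KO (212.1 CPM). Immune cells were highest for Atp6v0a1, at 151.9 and 121.8 CPM. The lowest class was stroma for Atp6v1b2, Atp6v1c1, Atp6v1h and Atp6v0b in both libraries. Many neighbours in these orders did not differ beyond counting error: of 11 neighbouring pairs, the intervals were apart in 1 (Atp6v0a1 in KO) to 8 (Atp6v0c in KO).

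The loop of Henle moved up in several orders. Its Atp6v1b2 level of 94.7 CPM in WT lay under those of proximal tubule, immune and intercalated cells and overlapped that of distal tubule (107.5 CPM). Its KO level of 309.8 CPM lay above those of immune and distal tubule cells (160.5 and 216.6 CPM) and overlapped that of proximal tubule (316.2 CPM). The summed level was 1846 CPM in WT loop of Henle against 2981 CPM in WT proximal tubule, and 3457 against 4006 CPM in KO.

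The 10 subunits had alike but not identical profiles. Over 22 points (11 classes without intercalated cells, in 2 libraries), Pearson's r of a subunit's log2 CPM with the mean of the other 9 was 0.98 for Atp6v0c and Atp6v0b and 0.58 for Atp6v0a1. The remaining 7 lay from 0.86 (Atp6v1a) to 0.96 (Atp6v1e1). Among 5432 other genes, the 5 most like the mean of the 10 were Grina (0.951), Tpp1 (0.951), Neu1 (0.934), Mroh1 (0.932) and Tmem251 (0.926). Tpp1 and Neu1 encode lysosomal enzymes, a peptidase and a sialidase. The points share libraries and cell classes, so these values describe likeness only.

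Other genes of the pump and of the lysosome were set beside the 10 in loop of Henle cells. The other widely expressed subunits were higher in 6 of 6 measured, and 2 passed 1.5-fold: the accessory subunits Atp6ap2 at 1.60 (1.48 to 1.74) and Atp6ap1 at 1.57 (1.43 to 1.73). Atp6v0e stood at 1.49, Atp6v1g1 at 1.45, Atp6v1f at 1.29 and Atp6v0a2 at 1.24. The tissue-restricted isoforms split, with 3 higher and 4 lower of 7. Atp6v0d2, the d isoform of osteoclasts and some epithelia, had 132 and 1545 UMIs, a ratio of 8.04 (6.73 to 9.68). Tcirg1, the a3 isoform of lysosomes and osteoclasts, had 89 and 614 UMIs, a ratio of 4.74 (3.79 to 5.99), and Atp6v0a4, the a4 isoform of kidney epithelia, stood at 1.33 (1.23 to 1.43). Atp6v1g3 had 76 and 2 UMIs, a ratio of 0.0181 (0.00215 to 0.0676), and Atp6v1c2 had 54 and 6, a ratio of 0.0763 (0.0268 to 0.177). Atp6v1b1, the B isoform of intercalated cells, named after its values were seen, had 269 and 129 UMIs, a ratio of 0.329 (0.265 to 0.408). The B isoforms thus differed in opposite directions in these cells.

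Genes for assembly and regulation of the pump did not move as a group, with 6 higher and 3 lower of 9 measured. Only 1 was at least 1.5-fold higher, against 10.7% of all genes. That gene was Dmxl2, a rabconnectin that helps V1 and V0 join, at 3.18 (2.74 to 3.71), while Oxr1, a protein of the TLDc family, stood at 0.552 (0.514 to 0.594). Vma21, an assembly factor of V0, stood at 0.854 (0.730 to 0.9995). Lysosomal membrane proteins and hydrolases were higher in 25 of 25 and at least 1.5-fold in 21, led by Hexa at 8.99 (7.71 to 10.5), Grn at 2.75, Lamp1 at 2.33 and Neu1 at 2.29. The lowest of that list was Npc1 at 1.13. Known targets of TFEB, TFE3 and MITF were higher in 17 of 18 and at least 1.5-fold in 13, led by Gpnmb with 14 and 653 UMIs, at 32.0 (19.0 to 58.9), Fnip2 at 5.41, Uap1l1 at 5.18 and Amdhd2 at 4.0. Uvrag was the lowest of the targets, at 0.993. The mitochondrial ATP synthase, another rotary enzyme, was higher in 13 of 13 but with none at 1.5-fold, and a median log2 ratio of 0.38. In distal tubule it was higher in 12 of 12 and at least 1.5-fold in 8. Its median there, 0.74, lay beside 0.68 for the 10 subunits, while in proximal tubule it was lower in 11 of 13. In loop of Henle cells the median of the 10 V-ATPase subunits, 0.96, lay beside that of the target list, 0.98, and the lysosomal list, 0.81. These lists were chosen with earlier results of these data known, so their counts and medians are description only.

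Flcn itself was read in every class as a check of the labels, but 3′ counts outside the floxed part do not test the deletion. It had 59 UMIs in WT and 106 in KO loop of Henle cells, a ratio of 1.23 (0.889 to 1.73). It was lower in KO proximal tubule, at 0.603 (0.519 to 0.70), and higher in podocytes, at 1.75 (1.34 to 2.29). In the other 8 classes of the comparison its intervals held 1.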

How the data were processed

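The authors deposited 1 matrix of raw UMI counts per library, made with 3′ chemistry of 10x Genomics per the labels' protocols. Cell Ranger is given as 7.0.0 in the WT matrix and as 7.1.0 in the KO matrix, per the file headers. Per the submitters' processing notes, bcl2fastq 2.20.0 and STAR 2.7.2a were used with GRCm38 (mm10). The treatment of intronic reads and strand is not given in the sources used here.

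Barcodes with at least 1000 UMIs, 500 genes and at most 20% mitochondrial UMIs were kept. Scrublet in scanpy 1.11.5 called 2 barcodes as doublets in each library, so the 140 WT and 203 KO barcodes with the highest scores were removed, the expected share. Leiden clusters (resolution 1, 2000 variable genes without V-ATPase genes, 40 components, 20 neighbours) had no batch correction and were named from marker lists. Subclusters are Leiden clusters at resolution 2. Naming thresholds, the split of a cluster with 2 names and the number of Leiden passes were set after seeing cluster markers, in 3 versions, before subunit values were viewed. Of the cells, 352 WT and 248 KO stayed unnamed, and names rebuilt here may differ from the study's.

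UMIs were summed per class and library as CPM. Ratios have exact conditional 95% intervals, and levels exact Poisson ones. A gene was called at a ratio of at least 1.5 among genes with at least 50 UMIs over both libraries. The calculation was tested on simulated data. Levels are not scaled for length and are not compared between genes. The members, gene lists and rules were chosen with earlier results of these data known. All 10 subunits were named, with the 5 genes of most similar profile, and Flcn. The rule also allowed the 4 highest and 2 lowest genes of each other list in loop of Henle cells, of which not all are printed. From the lists, Tldc1, Atp5f1 and Atp5o were not matched to a single row. Alternatives varied the cell filters, doublets, resolution, the scaling (TMM of edgeR 4.0.16, size factors of DESeq2 1.42.0), averaging, thinning and call limits. Python 3.11.15 (scipy 1.17.1, numpy 2.4.6, pandas 2.3.3) and R 4.3.3 were used.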

Additional observations from a re-analysis of the deposited data

Results flagged for a closer look

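For 7 of the 10 subunits, the KO library was higher in at least 1 class and lower in at least 1 other, with intervals clear of 1. No share of all genes that met this rule over the 11 classes is given, so the count has no background. In endothelium alone, 12.5% of all genes had an interval wholly over 1 and 13.7% wholly under 1. The highest and the lowest of each subunit's ratios with such intervals are printed. With 1 library a group, none of these differences was tested across samples. Atp6v1a had a ratio of 1.71 in podocytes and 0.646 in distal tubule. Atp6v1b2 had 3.27 in loop of Henle and 0.712 in immune cells. Atp6v1e1 had 1.93 in loop of Henle and 0.865 in endothelium. Atp6v0a1 had 2.65 in proximal tubule and 0.802 in immune cells. Atp6v0b had 2.86 in podocytes and 0.901 in endothelium. Atp6v0c had 1.97 in loop of Henle and 0.893 in endothelium. Atp6v0d1 had 2.07 in loop of Henle and 0.879 in ureteric bud and collecting duct. For 6 of the 7 the lower class lies outside the Six2 lineage, and Atp6v1a is the exception.

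The cells left without a name, which entered no comparison above, also had higher subunit levels in KO, with a median log2 ratio of 0.73. Of the 10 subunits, 10 were higher and 6 at least 1.5-fold higher, against 7.54% of 14017 genes.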

How the results depend on the processing

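With 1 library a group no p-value, replicate check or leave-one-out fit exists. No paired analysis was possible because each group has 1 library. Of 342 alternative values for counts and medians, 318 stayed within 1.5 times the main count or within the range from the second lowest to the second highest subunit. That range is wide, so a value inside it may still have changed much. In loop of Henle cells it ran from 0.41 to 1.05 in log2, around a median of 0.96. Of 110 alternative ratios of single subunits in loop of Henle cells, 66 stayed within the main ratio's counting interval, 42 moved out of it and 2 reversed. Leaving out subclusters with at least 90% of cells from 1 library lowered the loop of Henle median log2 ratio from 0.96 to 0.33 and its count from 8 to 2, turned Atp6v1a (0.835) and Atp6v1e1 (0.757) below 1 there, and lowered the proximal tubule count from 4 to 1. Fewer cells and fewer KO cells of 1 kind entered that setting, and no share of all genes is given for it. A 2-fold limit gave counts of 0 in progenitors, 1 in early nephron, 2 in podocytes, 1 in proximal tubule, 4 in loop of Henle and 2 in distal tubule, against 1.34%, 1.06%, 2.86%, 4.61%, 4.39% and 4.5% of all genes. A lower limit, a KO to WT ratio of 5 to 4, gave 6 in progenitors, 9 in early nephron, 1 in endothelium and 2 in immune cells, against 12.7%, 11.1%, 9.64% and 17.5% of all genes. The progenitor count was 2 as a mean over cells and 4 after thinning, and thinning gave 1 in mural and 1 in immune cells. The distal tubule count of 6 was 1 at a mitochondrial limit of 10%, 3 at 2000 UMIs and 3 at resolution 2. No share of all genes is given for these settings. In the main setting it was 4.78% in progenitors, 5.21% in mural, 6.57% in immune and 12.9% in distal tubule cells. The median of ureteric bud and collecting duct was 0.11 at the 10% limit and 0.11 at resolution 2, and that of stroma 0.00044 as a mean over cells. Against stroma alone, a reference chosen after seeing the data, the early nephron median ratio of ratios was 1.46 (main 1.63). The shift of all log2 ratios by either other scaling was at most 0.063 in size in the 11 classes. The cause of these changes was not tested. Depth limits the classes with few nuclear-encoded UMIs, among them KO intercalated (342058), WT immune (908586) and KO distal tubule cells (992503).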

Other observations

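Among the unnamed cells, the direction was shared by 5 clusters that met no class. In a cluster of 63 WT and 65 KO cells, 5 of 10 subunits were at least 1.5-fold higher in KO, against 6.01% of all genes with at least 50 UMIs there, with a median log2 ratio of 0.58. In a cluster of 72 and 74 cells the count was 7 of 10 against 7.12%, and the median 0.78. In a cluster of 47 and 35 cells they were 5 of 10 against 11.7% and 0.63, and in 1 of 21 and 16 cells 4 of 10 against 6.26% and 0.32. The largest, with 149 and 58 cells, was shallow, with medians of 2228 and 3224 UMIs a cell. It had 7 of 9 measured subunits past 1.5-fold, against 17.2% of genes, and a median of 0.87.

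In intercalated cells the median log2 ratio over the 10 subunits was 0.31, against 0.10 over all genes with enough UMIs, and the ratio of their sum was 1.13 (1.07 to 1.18). Atp6v0d2, named after its values were seen, had 568.1 CPM in WT and 941.4 CPM in KO intercalated cells, against 16.6 and 133.6 CPM in loop of Henle cells.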
